A study of Mus musculus with 24 samples.

Results

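The 10 genes described here encode catalytic and regulatory subunits of the PI3-kinases, and they were chosen by gene name among the array's probes: Pik3ca, Pik3cb, Pik3cd, Pik3cg, Pik3r1, Pik3r2, Pik3r3, Pik3c2a, Pik3c2g and Pik3c3. They are read by 22 of the 56605 probes outside controls. The rule that picks their probes reads gene names and no measured value. Liver RNA was measured on 24 one-colour arrays, 1 male mouse each, in 4 groups of 6 mice that the labels name LWT_Fed, LKO_Fed, LWT_Fasted and LKO_Fasted. All mice carried the floxed p110α allele (p110α flox/flox), were 12 weeks old and were killed at zeitgeber time 16 h, and the fasted mice had been without food for 24 h. LKO mice (albumin-Cre+/-) lose a pair of exons of Pik3ca where the albumin promoter drives Cre, that is in hepatocytes, while LWT mice are littermates without Cre, so Cre itself and the deletion cannot be told apart. The comparisons asked whether the other subunits differ in mRNA level where Pik3ca is deleted, and how each subunit responds to fasting in the presence and absence of the deletion.

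PI3-kinases phosphorylate the 3-position of the inositol ring of membrane lipids. The class IA enzymes pair a p110 catalytic subunit (p110α from Pik3ca, p110β from Pik3cb, p110δ from Pik3cd) with a regulatory subunit of the p85 family (p85α and its shorter forms from Pik3r1, p85β from Pik3r2, p55γ from Pik3r3), which stabilises the catalytic subunit and docks it on phosphorylated receptors or on IRS proteins. They make PIP3, through which insulin activates AKT in the liver. Class IB p110γ, from Pik3cg, acts downstream of G protein-coupled receptors and is best known in leukocytes, as is p110δ. The class II enzymes (Pik3c2a, Pik3c2g) and the class III enzyme Vps34 (Pik3c3) make other 3-phosphoinositides in endocytic traffic and autophagy.

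Probe positions refer to mm9. What a value can say depends on where its probe lies. The single Pik3ca probe (chr3:32364747-32364806) starts at base 6255 of its transcript, far past the coding part, so it lies outside the deleted exons and checks neither the deletion nor the labels. Probes of 4 genes are placed on the genome with a gap and so cross an exon junction with an open reading frame. Their sequences are shown because they read spliced coding message, and because those of Pik3r1 and Pik3c2a carry results while those of Pik3cd and Pik3r2 were too dim to test, unlike another probe of the same gene.
Pik3r1 probe A_52_P307938, chr13:102459406-102460448, minus strand, tested: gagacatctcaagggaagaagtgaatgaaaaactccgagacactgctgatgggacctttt
Pik3c2a probe A_55_P2731676, chr7:123531590-123533971, minus strand, tested: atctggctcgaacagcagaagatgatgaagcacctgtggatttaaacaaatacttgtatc
Pik3cd probe A_55_P2736754, chr4:149027949-149028145, minus strand, well above background on 0 of 24 arrays: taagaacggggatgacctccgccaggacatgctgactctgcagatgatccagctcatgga
Pik3r2 probe A_55_P2739463, chr8:73296273-73296532, minus strand, well above background on 3 of 24 arrays: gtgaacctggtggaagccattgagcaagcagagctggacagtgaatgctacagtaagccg

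Pik3c2a is also read by A_55_P2737857, whose position, 1001 and 1321 bases from the ends of the interval spanned by the gene's junction probe, puts it in the gap of that probe, that is in an intron of that transcript; the array annotation assigns it to another transcript. The Pik3c2g probes A_51_P191077 and A_55_P1999953 share 26 of their 60 bases and are not independent readings. The Pik3r1 probe matches both RefSeq transcripts listed for it, so it does not separate the long and short forms.

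RefSeq (GRCm38.p6) gave 16 promoter windows for 9 of the genes, from 250 bases before to 50 bases after a transcript start; Pik3c3 had none. The 250 bases before the start are shown for the 3 genes whose mRNA differed most, for Pik3r1 at both of its listed starts, with capitals for the GC box (GGGCGG or its complement CCGCCC) and the CCAAT box (CCAAT or ATTGG).
Pik3ca promoter, chr3:32396815-32397064, plus strand: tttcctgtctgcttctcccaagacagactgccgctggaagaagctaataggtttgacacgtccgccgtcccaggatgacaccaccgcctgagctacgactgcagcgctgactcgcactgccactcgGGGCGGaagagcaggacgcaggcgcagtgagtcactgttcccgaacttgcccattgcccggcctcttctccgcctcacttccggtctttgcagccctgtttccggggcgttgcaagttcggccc
Pik3r1 promoter of the first start, chr13:101768218-101768467, minus strand: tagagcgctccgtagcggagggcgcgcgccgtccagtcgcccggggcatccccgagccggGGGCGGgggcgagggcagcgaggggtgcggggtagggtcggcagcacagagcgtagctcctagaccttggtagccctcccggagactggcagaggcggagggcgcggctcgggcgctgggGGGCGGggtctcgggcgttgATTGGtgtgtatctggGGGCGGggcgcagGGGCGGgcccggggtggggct
Pik3r1 promoter of the second start, chr13:101692631-101692880, minus strand: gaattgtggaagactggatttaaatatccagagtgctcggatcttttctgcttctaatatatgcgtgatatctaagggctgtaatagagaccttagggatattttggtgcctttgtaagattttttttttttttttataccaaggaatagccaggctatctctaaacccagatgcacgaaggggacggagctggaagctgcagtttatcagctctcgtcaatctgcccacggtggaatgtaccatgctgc
Pik3r3 promoter of the first start, chr4:116221166-116221415, plus strand: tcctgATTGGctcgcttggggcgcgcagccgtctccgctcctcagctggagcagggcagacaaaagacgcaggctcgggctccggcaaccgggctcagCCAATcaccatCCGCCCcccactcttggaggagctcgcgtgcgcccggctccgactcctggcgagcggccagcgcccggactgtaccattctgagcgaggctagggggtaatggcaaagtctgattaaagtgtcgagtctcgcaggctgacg

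The first Pik3r1 window is 75.7% G and C and the second 43.7%, and the latter holds neither box. A GC box stood in 10 of the 16 windows, against 35.7% of all 32851 windows in the table, and a CCAAT box in 5 of 16, against 37.4%. The FOXO core letters TGTTTAC, searched on both strands, occurred in 1 of 16 windows, the second of Pik3cg, against 3.65% of all windows. The cyclic AMP element TGACGTCA (1.79% of all windows) and the E-box CACGTG (7.15%) occurred in none of the 16. These are matches of letters in a short window and no more.

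Per array, 54.7% to 63.0% of the spots exceeded the background clearly, and precision is limited by the number of arrays. Each of 3 slides carried 2 arrays of every group. To be tested, a probe had to be detected (well above background) on 5 or more of the 6 arrays in some group, and 32197 probes were. Of the PI3-kinase probes 17 passed, from 9 genes, and 5 did not. Values are normalised log2 signals, differences are log2 fold changes from limma with their standard error (SE), and a probe was called changed where its p, adjusted over the whole table, did not exceed 0.05. On the second principal component of all tested probes (13.6% of the variance), LKO_Fasted replicates 1 and 2 stood apart from their group, at -35.1 and -31.3 against -2.92 to -1.40 in the other 4. LKO_Fed arrays lay at -29 to -19.1, LWT_Fed at 15.2 to 27 and LWT_Fasted at 16 to 25. Which of the LKO_Fasted arrays are unusual is thus not settled. Results from that group are also given without replicates 1 and 2 where they change. In whole liver, fewer cells of a type and less RNA per cell cannot be told apart. The 6 hepatocyte markers were all tested, with a summed linear signal of 1884000 to 1961000 in LWT_Fed, 1893000 to 1936000 in LKO_Fed, 1906000 to 2002000 in LWT_Fasted and 1798000 to 1899000 in LKO_Fasted. Quantile normalisation gives every array the same distribution, which limits how far sums of very bright probes can differ. These sums therefore do not measure hepatocyte content.

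In fed mice, 2 of the 17 probes were called between genotypes (4 at an unadjusted p under 0.05): Pik3ca was higher in LKO by 0.58 and Pik3r3 lower by 0.54. Over all probes the same test called 15.5%, with 7.95% higher and 7.52% lower, so the subunits were not called more often than probes in general. Transcripts of the other class IA catalytic subunits, Pik3cb and Pik3cd, showed no called difference in either state. In fasted mice 3 of 17 were called, against 19.6% of all probes (9.53% higher and 10.04% lower): Pik3r1 and Pik3r3 were lower in LKO and 1 Pik3c2a probe was higher.

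**Figure D1:**
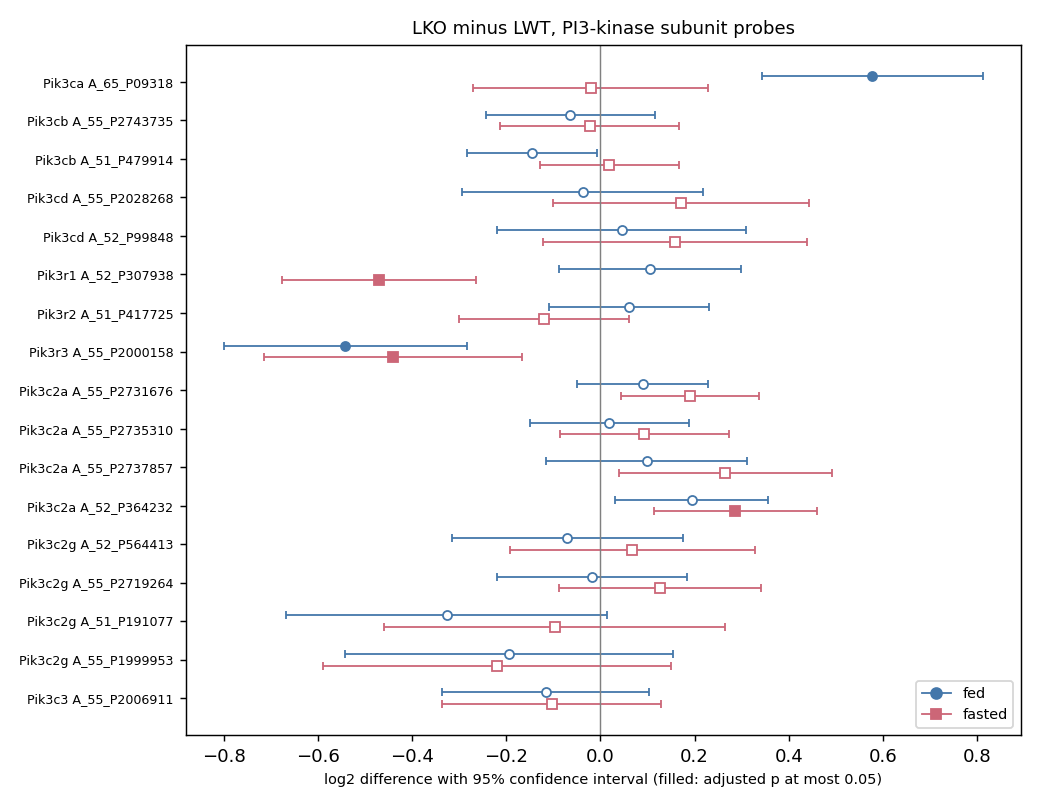
Log2 difference LKO minus LWT (x axis) for each of the 17 tested probes (y axis), in fed mice (circles) and fasted mice (squares), with 95% confidence intervals; filled symbols have an adjusted p of at most 0.05. Pik3ca stands apart at 0.58 in fed mice and at -0.02 in fasted mice, Pik3r3 is below 0 in both states, and Pik3r1 only in fasted mice.

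Pik3ca, the catalytic subunit whose exons are deleted, gave more signal in fed LKO livers. The 6 LWT_Fed arrays ran from 11.71 to 12.25 with a median of 11.88. Those of LKO_Fed ran from 12.30 to 13.02 with a median of 12.49. Every fed LKO array thus lay above every fed LWT array, although the gap between the groups was narrow. The difference was 0.58 (SE 0.113, adjusted p = 0.00147), a 1.49-fold higher signal, and it was positive on each slide taken alone, at 0.52, 0.92 and 0.43. In fasted mice the groups overlapped throughout, from 12.05 to 12.42 (median 12.32) in LWT_Fasted and from 12.03 to 12.50 (median 12.27) in LKO_Fasted, with a difference of -0.02 (95% confidence interval -0.27 to 0.23, adjusted p = 0.93).

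Fasting raised the Pik3ca signal in LWT by 0.35 (SE 0.110, adjusted p = 0.0145), while in LKO the change was -0.25 (SE 0.122, adjusted p = 0.108, but 0.0228 and called with a block for replicate number). The difference between these fasting changes, LKO minus LWT, was -0.60 (SE 0.165, adjusted p = 0.0299). This interaction was not called without LWT_Fed replicate 4, LWT_Fasted replicate 5 or 6, or LKO_Fasted replicate 1 (adjusted p = 0.0572, 0.0504, 0.0644 and 0.0519), nor without LKO_Fasted replicates 1 and 2 together, whose Pik3ca values of 12.03 and 12.06 were the lowest of their group (-0.51, adjusted p = 0.0655). It was also lost with any 1 of the 3 slides left out (adjusted p = 0.0698, 0.0708 and 0.13). The fasting rise in LWT was not called without LWT_Fed replicate 4 or LWT_Fasted replicate 6 (adjusted p of up to 0.053), or with the first slide left out (adjusted p = 0.0581).

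**Figure D2:**
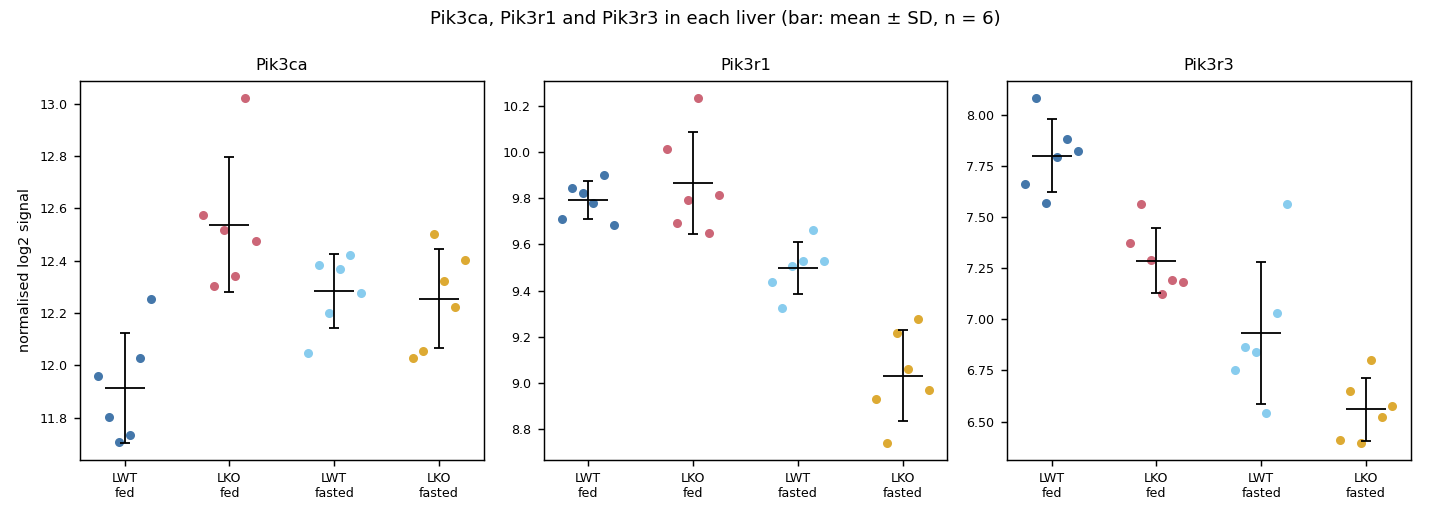
Normalised log2 signal (y axis) of Pik3ca, Pik3r1 and Pik3r3 in each of the 24 livers by group, with black bars for the mean ± SD of 6 mice. Pik3ca is lowest in LWT_Fed, Pik3r1 is lowest in LKO_Fasted (8.74 to 9.28), and Pik3r3 is highest in LWT_Fed and falls in both genotypes with fasting.

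Among the regulatory subunits, Pik3r1 fell with fasting, and further in LKO. The fed groups overlapped, at 9.68 to 9.90 (median 9.80) in LWT_Fed and 9.65 to 10.23 (median 9.80) in LKO_Fed, with a difference of 0.11 (95% confidence interval -0.09 to 0.30, adjusted p = 0.49). Values in LWT_Fasted ran from 9.32 to 9.66 (median 9.52), and those in LKO_Fasted from 8.74 to 9.28 (median 9.01). No array of LKO_Fasted reached the lowest of any other group. Fasting lowered the signal by -0.84 in LKO (SE 0.101, adjusted p = 7.42e-07), a 1.78-fold fall, and by -0.26 in LWT (SE 0.0914, adjusted p = 0.0271). In fasted mice the genotypes differed by -0.47 (SE 0.0992, adjusted p = 0.0018), and the difference was -0.53, -0.23 and -0.64 within the slides. The summed hepatocyte markers were also lower in LKO_Fasted (median 1824000) than in LWT_Fasted (median 1953000), without overlap. Of the 6, limma called 1 (Ttr, -0.41, adjusted p = 2.03e-05), against 20.6% of all genes. The others gave -0.02 (Alb), -0.004 (Serpina1a), -0.07 (Cyp2e1), 0.05 (Apoa1) and -0.56 (Tat, adjusted p = 0.086). The part of hepatocytes in the lower Pik3r1 signal was not tested.

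The interaction of Pik3r1 was -0.58 (SE 0.136, adjusted p = 0.0127), and it kept its call without any single array and without LKO_Fasted replicates 1 and 2 (-0.48, adjusted p = 0.0318). With the third slide left out it was -0.37 (adjusted p = 0.224). Interactions were called for 2 of the 17 probes, Pik3ca and Pik3r1, both lower, against 7.40% of all probes (3.89% higher and 3.50% lower). The fasting change in LWT by itself was less firm: without LWT_Fed replicate 5 or LWT_Fasted replicate 3 it was not called, with an adjusted p of up to 0.139. It was also not called with the processed signal scaled to the 75th percentile, with normexp background correction, or with the first or the second slide left out (adjusted p = 0.0682, 0.051, 0.137 and 0.0889).

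Pik3r3, which encodes p55γ, was lower in LKO in both states and fell with fasting in both genotypes. LWT_Fed ran from 7.57 to 8.08 (median 7.81) and LKO_Fed from 7.12 to 7.56 (median 7.24), so the fed groups just failed to overlap. LWT_Fasted ran from 6.54 to 7.57 (median 6.85) and LKO_Fasted from 6.40 to 6.80 (median 6.55). LWT_Fasted replicate 6, at 7.57, was well above the other arrays of its group, of which the next was at 7.03. The fed genotypes differed by -0.54 (SE 0.124, adjusted p = 0.00478) and the fasted ones by -0.44 (SE 0.132, adjusted p = 0.0211). The fasted difference was not called without LWT_Fasted replicate 6, without LKO_Fasted replicate 3 or without LKO_Fasted replicates 1 and 2 (adjusted p of up to 0.0947 over these fits), nor with any 1 slide left out or with only the groups compared in the fit (adjusted p of up to 0.0951). The fed difference kept its call without any single array, and lost it with the second or the third slide left out (adjusted p of up to 0.0671).

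Fasting lowered Pik3r3 by -0.85 in LWT (SE 0.121, adjusted p = 7.27e-06) and by -0.75 in LKO (SE 0.134, adjusted p = 0.000103), and these changes did not differ beyond their error (interaction 0.10, 95% confidence interval -0.27 to 0.48). Markers of bile duct cells also moved with genotype: 3 of the 4, Krt19, Epcam and Spp1, were lower in fed LKO livers (against 16.4% of all genes called), and 2 of the 4, Epcam and Spp1, in fasted ones (against 20.6%). The summed linear signal of the 4 was 1948 to 3263 in LWT_Fed and 667.5 to 1656 in LKO_Fed. It was 1480 to 1924 in LWT_Fasted and 339.5 to 948.9 in LKO_Fasted. These sums did not overlap between genotypes in either state, but Spp1 had the largest difference of the 4 in both (-2.10 in fasted mice). In fed mice Krt19 gave -0.57 and Epcam -0.41, and Krt7 was not called (adjusted p = 0.23). The share of each marker in the sums was not tested. The gap may therefore rest largely on Spp1, and the sums do not measure bile duct cell content. With fasting, 2 of the 4 were lower in each genotype (against 41.5%). Of other cell types in fed LKO livers, 1 of 6 endothelial markers (Lyve1, -0.88), 1 of 7 leukocyte markers (Cd53, -0.56) and 1 of 2 erythroid markers (Alas2, -0.80) were lower, against 16.4% of all genes called. Others in these lists were not called and included rises, such as Kdr (0.11) and Laptm5 (0.24). By limma, 0 of 9 macrophage (median -0.37, 3 at an unadjusted p under 0.05), 5 T and NK cell, 3 B cell, 3 neutrophil and 6 stellate cell markers were called. Alas2 was also lower in fasted LKO livers (-0.83, adjusted p = 0.00128), and 1 of 2 erythroid markers fell with fasting in each genotype. With fasting, the stellate cell markers Lrat (-0.90 in LWT and -0.96 in LKO) and Col3a1 (-0.89 and -1.23) were lower and Dcn was higher, of 6 tested, against 41.5% of all genes called. The summed signal of the 6 was 27250 to 34550 in LWT_Fed, 25760 to 36180 in LKO_Fed, 32160 to 37860 in LWT_Fasted and 26660 to 43140 in LKO_Fasted. The part of any of these cells in the Pik3r3 differences was not tested.

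Pik3r2, which encodes p85β, showed no called difference. Its tested probe A_51_P417725 ran from 10.14 to 10.78 over all 24 arrays, with a mean of 10.46 ± 0.145 (SD, n = 6) in LWT_Fed and 10.49 ± 0.107 in LKO_Fed. With fasting the means were 10.49 ± 0.171 (LWT) and 10.36 ± 0.166 (LKO). None of its contrasts was called, and the fed genotypes differed by 0.06 (95% confidence interval -0.11 to 0.23). The junction probe of Pik3r2 shown above was well above background on 3 of 24 arrays, so for this gene the probes disagree on detection.

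Of the other catalytic subunits, Pik3cb showed 1 called change. Probe A_51_P479914 rose with fasting in LKO by 0.30 (SE 0.0723, adjusted p = 0.00211), from 8.57 to 8.88 (median 8.74) in LKO_Fed to 8.84 to 9.17 (median 9.01) in LKO_Fasted. The ranges overlapped between 8.84 and 8.88 alone. With the second slide left out the difference was 0.18 (adjusted p = 0.132). In LWT the same probe changed by 0.13 (adjusted p = 0.111), and the interaction, at 0.16 (adjusted p = 0.33), does not show that the genotypes differed in this response. The gene's other probe, A_55_P2743735, changed by 0.14 in LKO (adjusted p = 0.231). Between genotypes in the fed state the Pik3cb differences were -0.15 (95% confidence interval -0.28 to -0.01, adjusted p = 0.149) and -0.06 (-0.24 to 0.12), so any rise of Pik3cb in fed LKO livers above 0.12 lies outside both intervals.

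Pik3cd, mainly a leukocyte subunit, was near the dim end of the array. Probes A_55_P2028268 and A_52_P99848 were well above background on all 24 arrays, while A_55_P2736754 was so on none and A_55_P2028263 on 1. No contrast of either tested probe was called. In fed mice the genotype differences were -0.04 (95% confidence interval -0.29 to 0.22) and 0.04 (-0.22 to 0.31). LKO_Fasted replicate 6 gave the highest value of all arrays on both probes, 7.44 and 7.75, against a range of 6.56 to 7.15 and 6.63 to 7.08 in the rest of its group.

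That same liver had the highest summed signal of the 9 macrophage markers, 93500 against 22160 to 55280 on the other 23 arrays, and of the 7 leukocyte markers, 9109 against 4802 to 7802. Without it, the fasted genotype differences of Pik3cd were 0.01 and -0.02, in place of 0.17 and 0.16. The part of these cells in the Pik3cd signal was not tested. With fasting in LWT, 4 of 7 leukocyte markers were lower, against 41.5% of all genes called in either direction, and in LKO limma called 0 of 7 (0 at an unadjusted p under 0.05).

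**Figure D3:**
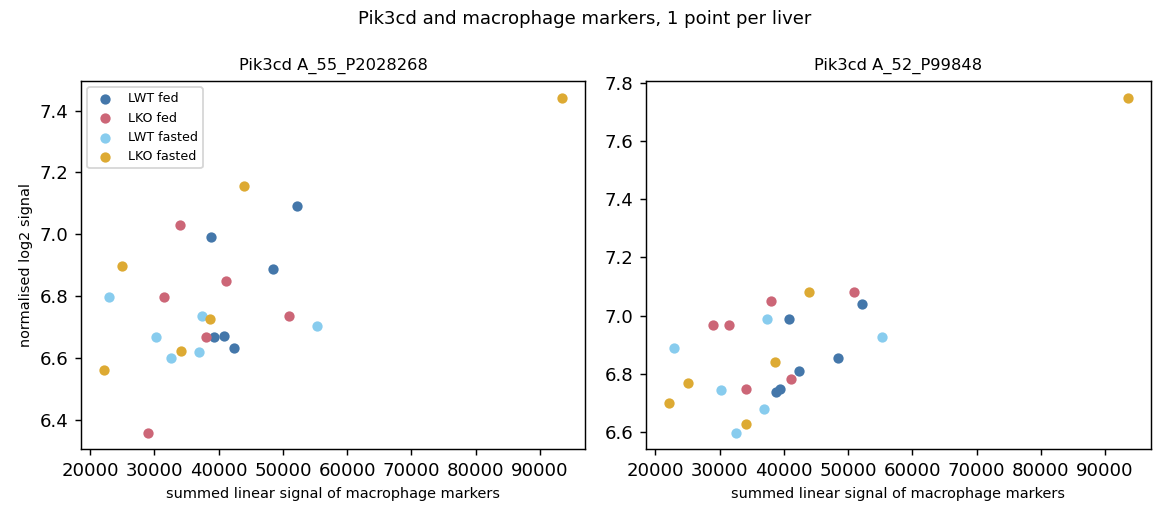
Normalised log2 signal of the tested Pik3cd probes (y axes) against the summed linear signal of 9 macrophage markers (x axes), 1 point per liver, coloured by group. LKO_Fasted replicate 6 lies alone at the upper right in both panels.

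Pik3cg, the class IB catalytic subunit, was not tested. Its single probe A_51_P507832 was well above background on 2 LWT_Fed arrays and on 4 arrays of each other group, so no fold change is given. The log2 median signal before normalisation ran from 5.52 to 6.42 on 23 arrays and reached 7.17 on LKO_Fed replicate 3.

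Both class II enzymes had probes that rose with fasting. Fasting called 6 of the 17 probes in LWT, against 41.3% of all probes (20.7% higher and 20.6% lower), and 7 of 17 in LKO, against 41.3% (20.7% higher and 20.5% lower). In LWT, 4 of the 6 were higher, and in LKO 5 of the 7. Among those 5, Pik3c2g probe A_55_P2719264, was tested only because it was detected on 5 LKO_Fasted arrays, the group in which it was highest. Beside Pik3ca in LWT and Pik3cb in LKO, all called rises were in Pik3c2a and Pik3c2g, and the called falls were Pik3r1 and Pik3r3 in both genotypes.

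**Figure D4:**
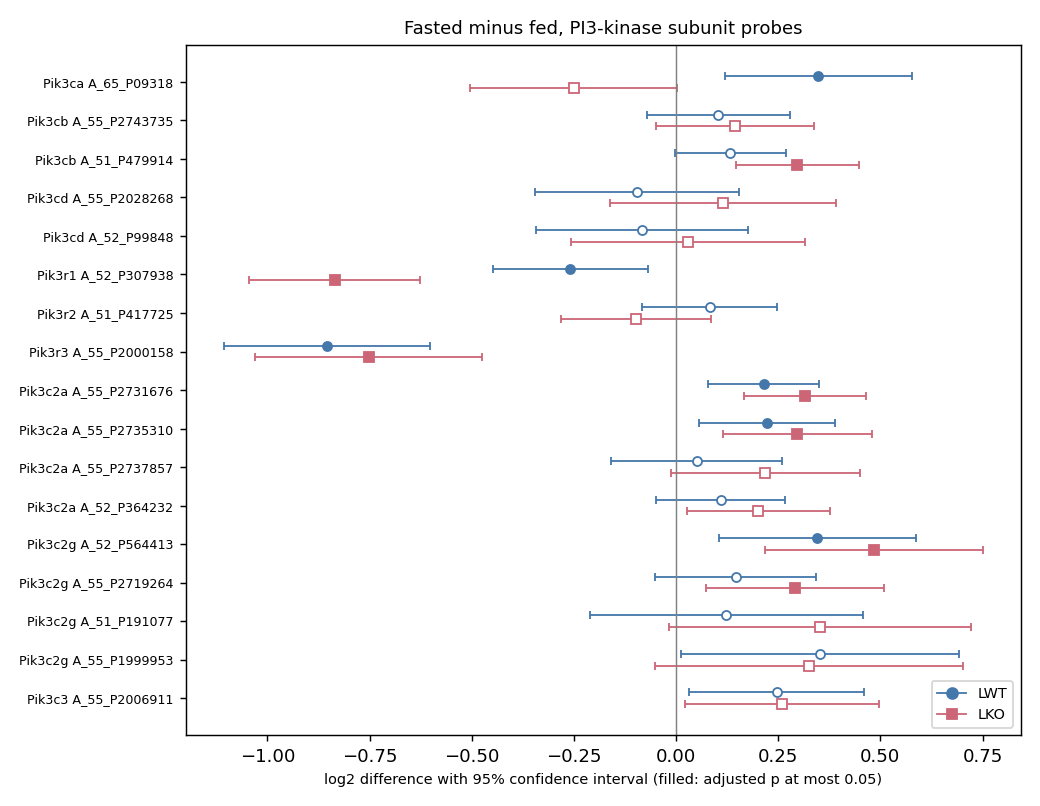
Log2 difference fasted minus fed (x axis) for the 17 tested probes (y axis) in LWT (circles) and LKO (squares), with 95% confidence intervals and filled symbols for an adjusted p of at most 0.05. Both genotypes share the fall of Pik3r3, whereas Pik3ca lies at 0.35 in LWT and -0.25 in LKO, and Pik3r1 at -0.26 and -0.84.

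Pik3c2a, a class II kinase that works in endocytosis, rose on its junction probe A_55_P2731676 by 0.21 in LWT (SE 0.0654, adjusted p = 0.0113) and by 0.32 in LKO (SE 0.0723, adjusted p = 0.00126). That probe ran from 7.57 to 7.77 (median 7.65) in LWT_Fed and from 7.75 to 8.14 (median 7.87) in LWT_Fasted. In LKO it ran from 7.58 to 7.88 (median 7.78) fed and from 7.85 to 8.39 (median 8.09) fasted. In each genotype only the edges of the fed and fasted ranges overlapped. With the second slide left out neither change was called (adjusted p = 0.087 in LWT and 0.0905 in LKO). Probe A_55_P2735310 gave 0.22 (adjusted p = 0.0289) and 0.30 (adjusted p = 0.00959), and its call in LWT was lost in 5 of the fits without 1 array (adjusted p of up to 0.0821). Its calls in both genotypes were lost with the second or the third slide left out (adjusted p of up to 0.149), that in LWT also without the filter on dim probes or with the replicate block (0.0513 and 0.0628), and that in LKO with only the groups compared in the fit (0.0524). The 2 other probes, the intronic A_55_P2737857 and A_52_P364232, gave positive differences from 0.05 to 0.22 that were not called. In LKO, A_52_P364232 was called without array weights or with the replicate block (adjusted p = 0.0247 and 0.017) and A_55_P2737857 with the first slide left out (0.0344).

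Between genotypes, all 4 Pik3c2a probes gave positive differences in both states, from 0.02 to 0.19 in fed mice and from 0.09 to 0.29 in fasted mice, but in the fit described here A_52_P364232 in fasted mice was the single one called (0.29, SE 0.0832, adjusted p = 0.0174). It ran from 7.21 to 7.51 (median 7.34) in LWT_Fasted and from 7.47 to 7.80 (median 7.59) in LKO_Fasted. Without LWT_Fasted replicate 6 its adjusted p was 0.056, and with the second or the third slide left out 0.0804 and 0.145. Without LKO_Fasted replicates 1 and 2, the junction probe A_55_P2731676 was called as well in fasted mice (0.27, adjusted p = 0.0145, against 0.19 and 0.0634 in the fit described here), as it was without the slide term or with slide as a random block (adjusted p = 0.0442 in each). In fed mice A_52_P364232 was called with the processed signal (0.33, adjusted p = 0.0254) and with normexp background correction (0.23, adjusted p = 0.035), against 0.19 and 0.0977. With the first slide left out, A_52_P364232 in fed mice and A_55_P2731676 and A_55_P2737857 in fasted mice were called (adjusted p = 0.0281, 0.0262 and 0.0206). No Pik3c2a interaction was called, with estimates of 0.07 to 0.17. The 4 probes read the same livers and are not replicates of each other.

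Pik3c2g, a class II kinase found chiefly in liver, rose with fasting on A_52_P564413 by 0.35 in LWT (SE 0.116, adjusted p = 0.0201) and by 0.48 in LKO (SE 0.128, adjusted p = 0.00416). The arrays ran from 7.72 to 8.04 (median 7.98) in LWT_Fed, from 7.84 to 8.69 (median 8.36) in LWT_Fasted, from 7.70 to 8.11 (median 7.77) in LKO_Fed and from 8.07 to 8.81 (median 8.30) in LKO_Fasted. In LKO only the edges of the ranges overlapped, whereas in LWT the lowest fasted array, replicate 5 at 7.84, lay below 4 of the 6 fed arrays. The call in LWT was lost without LWT_Fed replicate 5 (adjusted p = 0.0808) and with the first or the second slide left out (0.0907 and 0.106). Probe A_55_P2719264 was well above background on 1 of 6 LKO_Fed arrays and on 5 of 6 LKO_Fasted arrays, and it entered the test through the latter group alone. Its difference of 0.29 in LKO (adjusted p = 0.0308) therefore has a fed level mostly below the detection limit, and the call was lost in 5 of the fits without 1 array, with the processed signal, with the first or the second slide left out, and with only the groups compared (adjusted p of up to 0.146).

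The overlapping Pik3c2g probes near the transcript's end gave 0.12 and 0.35 in LWT and 0.35 and 0.33 in LKO, none called. The former was called in LKO without array weights (0.46, adjusted p = 0.0366), and the latter in LWT with only the groups compared in the fit (0.36, adjusted p = 0.0221). Their fed genotype differences were -0.33 (95% confidence interval -0.67 to 0.01) and -0.19 (-0.54 to 0.16). In LKO_Fasted their spread was wide, from 7.50 to 8.45 and from 7.08 to 8.41, with replicates 2 and 3 lowest on both. Another probe of the gene, A_55_P2742910, was well above background on 1 array and was not tested.

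Pik3c3, the class III catalytic subunit Vps34, gave differences of 0.25 with fasting in LWT (SE 0.103, adjusted p = 0.0614) and 0.26 in LKO (SE 0.114, adjusted p = 0.0749), short of the threshold. In LWT it was called in 5 of 16 alternatives (normexp correction, the authors' value table, no slide term, slide as a random block and the first slide left out, adjusted p down to 0.0351) and without LWT_Fed replicate 6, LKO_Fed replicate 6 or LWT_Fasted replicate 2. In LKO it was called with the third slide left out (0.40, adjusted p = 0.0395) and without LKO_Fed replicate 6. The arrays ran from 8.69 to 9.15 (median 8.89) in LWT_Fed, 8.81 to 9.38 (median 9.10) in LWT_Fasted, 8.50 to 9.14 (median 8.78) in LKO_Fed and 8.81 to 9.15 (median 9.01) in LKO_Fasted. All pairs of groups overlapped. Its genotype differences were -0.12 and -0.10, neither called.

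**Figure D5:**
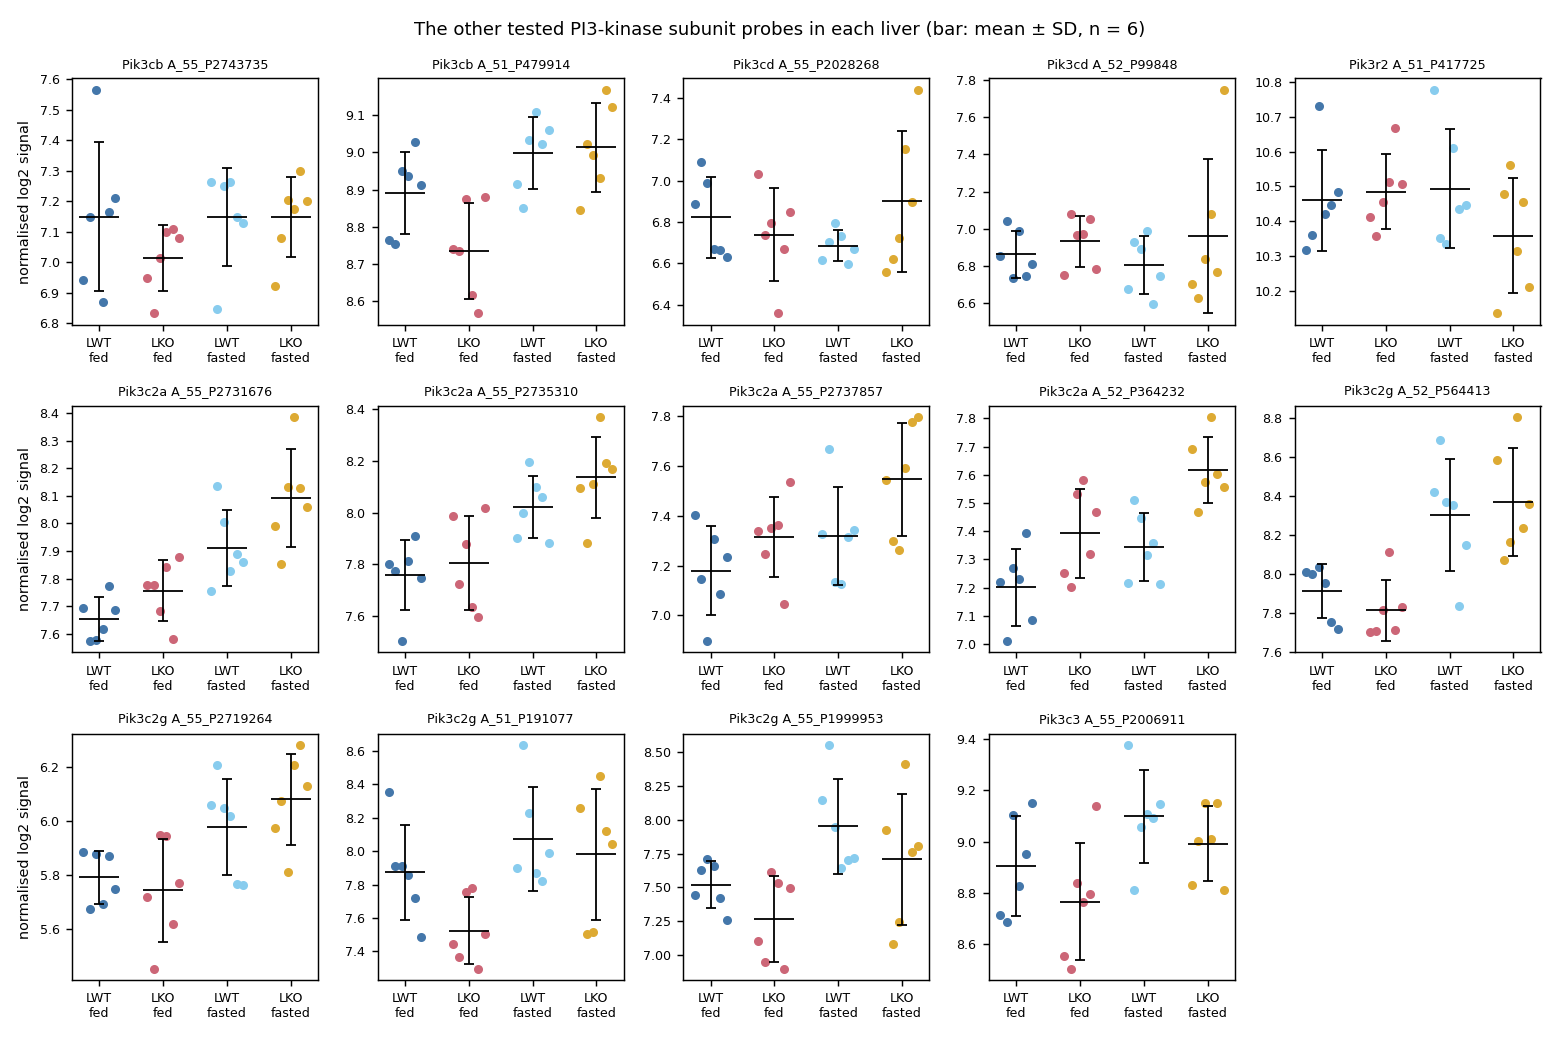
Normalised log2 signal (y axes) of the 14 other tested probes in each liver by group, with black bars for the mean ± SD of 6 mice. Class II probes called with fasting include Pik3c2a A_55_P2731676 and Pik3c2g A_52_P564413, while the ranges of Pik3r2 and Pik3cd overlap across all groups.

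Genes that act beside the PI3-kinases were read by the probe with the highest mean per gene, over 21495 genes. In the fed genotype contrast 16.4% of all genes were called, and the median difference over all genes was -0.01. By limma, 0 of 6 other PI3-kinase subunits and adaptors were called there (median -0.01; 1 at an unadjusted p under 0.05), 0 of 22 phosphoinositide phosphatases (median 0.07; 2 unadjusted) and 0 of 7 partners of the class III complex (median -0.05; 1 unadjusted). Among 11 phosphoinositide kinases 2 were higher, and the median was 0.0006. Of those, Pi4ka, which makes PI4P at the plasma membrane, was higher by 0.23 (adjusted p = 0.0143) on 1 of 3 probes, with -0.12 and -0.07 on the others. That call was lost with the processed signal, with only the groups compared, and with the second or the third slide left out (adjusted p of up to 0.245). Pip5k1a gave 1.11 (adjusted p = 0.0093) on 1 probe and -0.01 and -0.08 on its others, so its probes disagree, and the call was lost without array weights (0.102) and with the second or the third slide left out (up to 0.209).

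Of 11 insulin signalling genes, from the receptors and docking proteins to AKT and mTOR, 2 were higher in fed LKO livers (median 0.08). Insr, the insulin receptor, was higher by 0.30 (SE 0.0858, adjusted p = 0.0207), with 0.11 on its second probe, not called. Irs2, a docking protein for p85, was higher by 1.60 (SE 0.219, adjusted p = 8.46e-05). In the interaction, 7.97% of all genes were called. Insr (-0.44, adjusted p = 0.0332, with -0.19 on its second probe, not called) and Irs1, the other main docking protein (-0.66, adjusted p = 0.0182), were lower there. The Insr interaction was not called without LKO_Fasted replicates 1 and 2, without the filter on dim probes or without array weights (adjusted p = 0.0572, 0.0699 and 0.0729), nor in 10 of the 24 fits without 1 array (adjusted p of up to 0.0641). Both were lost with the second or the third slide left out (adjusted p of up to 0.246), as was the Insr call in fed mice (up to 0.158), which was also lost without LWT_Fed replicate 1 or 4 or LKO_Fed replicate 3 (up to 0.07).

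Phosphatases that remove phosphates from phosphoinositides had 3 of 22 genes called in the interaction. Inpp5b (-0.42, adjusted p = 0.00692) and Inpp4a (-0.60, adjusted p = 0.0154) were lower and Mtmr1, a 3-phosphatase of the myotubularin family, was higher (0.61, adjusted p = 0.000979). All 3 tested Mtmr1 probes were called, at 0.53 to 0.61, whereas the other probes of Inpp5b and Inpp4a were not called. The Inpp5b and Inpp4a calls were lost with the second or the third slide left out (adjusted p of up to 0.235), and that of Inpp4a also without the filter on dim probes or without array weights (0.0554 and 0.0665). By limma, 0 of the 6 other subunits and adaptors, 0 of the 11 kinases and 0 of the 7 class III partners were called in the interaction, with 1, 2 and 0 at an unadjusted p under 0.05.

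Counts in the remaining contrasts were as follows, beside 20.6% of all genes for the fasted genotype contrast and 41.5% for fasting in each genotype. Fasted LKO and LWT livers differed in 6 of 22 phosphatases (2 higher, 4 lower) and 3 of 11 insulin signalling genes (2 higher, 1 lower), and by limma in 0 genes of the other lists, of which 0 also had an unadjusted p under 0.05. With fasting in LWT, 2 of 6 subunits and adaptors, 8 of 22 phosphatases, 6 of 11 kinases, 3 of 7 class III partners and 6 of 11 insulin signalling genes were called. In LKO these numbers were 3, 6, 6, 1 and 7.

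Across the 24 arrays, the genes whose signal followed the Pik3ca probe most closely were B020031M17Rik (Pearson r = 0.97), Stra6 (0.95), a membrane receptor for retinol transport, and Trpm1 (0.94), a cation channel. For Pik3r1 they were Zfp970 (0.94), Gpsm2 (0.91) and Gm14440 (0.91). The arrays share groups, slides and normalisation, so these coefficients describe likeness only.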

How the data were processed

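Liver RNA of 24 mice was hybridised to one-colour 8x60K mouse arrays and read out with Agilent Feature Extraction (version 10.10.1.1 in the submitters' processing notes). Per the file headers, the deposited scanner files hold spot intensities (median signal, not normalised, with flags for spots well above background). A deposited table of the authors' log2 values, filtered, corrected for the washing bath and quantile normalised per the study's methods, served as an alternative. Control and outlier-flagged spots were left out, spots of 1 probe averaged, and the median signal log2 transformed and quantile normalised over 32197 probes kept by the detection filter. In limma 3.58.1 (R 4.3.3), group means and a slide term were fitted with array weights, and p-values were adjusted by the method of Benjamini and Hochberg over all probes within each of 5 contrasts. Group means are unweighted, so a fold change may depart from their difference. Gene names and mm9 positions are those of the array annotation, of which 32994 probes matched a RefSeq accession; a gene outside the PI3-kinases was represented by its brightest probe. The script was tested on simulated data.

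Each array is 1 mouse, so p-values measure the spread between mice. Replicate numbers were the same across groups, but arrays of equal number did not deviate together (correlation -0.18 to 0.28, over 0.1 in 4 of 36 pairs), so no block was used. All members were described. List genes were named if called in the fed genotype contrast or the interaction (up to 4 per list and contrast), and the 3 genes most correlated with Pik3ca and with the member of lowest adjusted p were named. The rule for the members uses gene names alone, but this gene family and the lists were picked for description with earlier results of these data known. Alternatives covered signal type, background correction, dim-probe filter, array weights, samples fitted, a 1.5-fold minimum, single arrays, slides and the replicate block.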

Additional observations from a re-analysis of the deposited data

Results flagged for a closer look

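In 4 of 88 sets of 6 arrays, 1 array lay far from the other 5 by Dixon's test; chance gives about 1 in 20 sets. Pik3cb probe A_55_P2743735 was 6.846 in LWT_Fasted replicate 2, against 7.13 to 7.26 in the others of its group. Pik3c2g probe A_52_P564413 was 8.11 in LKO_Fed replicate 4, against 7.70 to 7.83. Before normalisation, Pik3cg was 7.17 in LKO_Fed replicate 3, against 5.61 to 5.81, and Pik3c2g probe A_55_P2742910 was 6.67 in LWT_Fed replicate 6, against 5.25 to 5.49. Neither of these last probes was tested.

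The response to fasting differed between genotypes for Pik3ca (-0.60, adjusted p = 0.0299) and for Pik3r1 (-0.58, adjusted p = 0.0127), by the interaction term in limma. Neither call held in every fit: that of Pik3ca was lost in 4 of 24 fits without 1 array (adjusted p of up to 0.0644), with any 1 slide left out (up to 0.13) and without LKO_Fasted replicates 1 and 2 (0.0655), and that of Pik3r1 with the third slide left out (0.224).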

How the results depend on the processing

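No result changed sign among the called ones under any alternative. Of the 17 probes, leaving out 1 array gave 2 to 3 calls for genotype in fed mice, 1 to 5 in fasted mice, 4 to 7 for fasting in LWT, 6 to 9 in LKO and 1 to 2 in the interaction. The lowest fasted count came without LWT_Fasted replicate 6. With a 1.5-fold minimum the counts were 0, 0, 1, 2 and 1. Leaving out the first slide gave 3, 4, 4, 7 and 1, the second 1, 1, 2, 3 and 1, and the third 1, 1, 5, 7 and 0, each with 16 arrays. Without LKO_Fasted replicates 1 and 2, the interaction had 1 call among the subunits and 1 among insulin signalling genes. The replicate block gave 2, 3, 5, 9 and 2 calls; it added Pik3ca for fasting in LKO (adjusted p = 0.0228) and raised the phosphatases called there to 10. Of 24 arrays, 2 correlated best with an array of their own number.

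For the lists, the 1.5-fold minimum left 1 kinase and 1 insulin signalling gene in fed mice, and 0 phosphatases and 1 insulin signalling gene in fasted mice. The kinase left, in fed mice and with fasting, was Pip5k1a on the probe that its others do not match. With fasting that probe gave 4.85 in LWT and 4.19 in LKO. The others gave 0.15 and 0.08 (A_51_P441974) and 0.07 and -0.07 (A_55_P1999908). With fasting the minimum left 1 subunit or adaptor, 1 phosphatase, 1 kinase, 0 class III partners and 1 insulin signalling gene in LWT, and 1, 1, 1, 0 and 3 in LKO. In the interaction it left 1 insulin signalling gene and the phosphatases Inpp4a (-0.60) and Mtmr1 (0.61). The processed signal gave 2 subunits or adaptors, 1 phosphatase and 1 class III partner in fed mice. The interaction had 1 insulin signalling gene without the filter on dim probes and 1 without array weights, and the latter gave 2 class III partners for fasting in LKO. Where no fewer arrays or higher minimum was involved, the cause was not tested. Dim probes, such as those of Pik3cg and Pik3cd, limit what could be seen of these genes.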
